A study of Mus musculus with 6 samples.

Results

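The genes described here are 37 genes of the unfolded protein response and of the ATF4 programme, taken by symbol from a deposited table of raw read counts with 31017 gene symbols. They comprise 5 sensors and regulators, 14 endoplasmic reticulum (ER) chaperones and foldases, 3 genes of ER-associated degradation, 7 genes of the ATF4 amino-acid programme and 8 genes of the CHOP and stress arm. All 37 symbols were in the table, and 36 passed the low-count filter. The gene that did not pass was Vldlr. The RNA-seq libraries hold poly(A) RNA of the mouse mammary carcinoma line 4T1, grown in 3D gels of collagen I, the main fibrillar collagen of connective tissue. The 3 control samples had been nucleofected with Cas9 and control guide RNAs, and the 3 ETV4 KO samples are labelled as knockouts of Etv4, a transcription factor of the ETS family. Both groups shared the Cas9 nucleofection, the serum-containing medium, the gel culture and the release of cells by collagenase I, and the comparison asked how transcript levels in this culture differ with the knockout. The library names carry the code c39 for the ETV4 KO samples, which the sources used here do not explain, nor do they say whether these cells are 1 clone or which of the collagen concentrations in the protocol was used. The labels do not say that replicates were separate cultures, so the p-values measure only how far these samples spread, and that spread may be technical.

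The ER folds secreted and membrane proteins, and the unfolded protein response is the signalling network that adjusts this capacity when misfolded proteins accumulate. It has 3 sensors in the ER membrane. IRE1alpha (Ern1) is an endoribonuclease that splices the Xbp1 transcript so that it encodes an active transcription factor. ATF6 travels to the Golgi, where it is cleaved to release a transcription factor that acts on chaperone promoters. PERK (Eif2ak3) phosphorylates the translation factor eIF2alpha, which lowers general translation but raises translation of the Atf4 transcript. ATF4 then drives genes of amino-acid synthesis and uptake and, with CHOP (Ddit3), genes of the stress arm. The ATF4 branch can also be entered through other eIF2alpha kinases, for example on amino-acid shortage, in what is called the integrated stress response.

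The total counts per library ranged from 22355015 to 29042569, and 12076 genes were tested. Levels are given as TMM-scaled CPM, the share of a library's counts that fall on a gene on a fixed common scale, and each gene was compared by edgeR's quasi-likelihood test with Benjamini-Hochberg adjustment over all genes tested, with a call at an adjusted p under 0.05. Etv4 itself was at 134, 135 and 133 CPM in the control libraries and 87.4, 89.5 and 92.3 CPM in the ETV4 KO libraries (log2 fold change -0.58 with SE 0.036, adjusted p = 1.03e-14), and read counts over the gene do not show whether its protein was lost. It lies on chromosome 11, where the median of its expressed neighbours was -0.46, and -0.11 remained after that median was removed (adjusted p = 0.00741). The 2 groups differed widely across the transcriptome, and 71.1% of all genes tested were called, 35% higher and 36% lower. The marker sums that follow are CPM of the total counts, without TMM scaling. Summed CPM of 6 mammary epithelial markers, led by Krt8, was 4747 to 4871 in control and 3246 to 3364 in ETV4 KO libraries. Mitochondrially encoded transcripts took 1.80% to 1.96% and 2.27% to 2.51% of counts. Markers of fibroblasts summed to 9.89 to 11.6 CPM in control and 12.4 to 14.2 CPM in ETV4 KO libraries, with Lum and Thy1 at 0 in all 6, and those of leukocytes to 10.0 to 10.6 and 9.24 to 11.3 CPM, with Cd3e, Adgre1 and Lyz2 at 0. Pdgfra made up nearly all of the fibroblast sum, and Cd68 nearly all of the leukocyte sum. Markers of endothelium and adipocytes stayed below 1 CPM. The part of these differences in the results for the stress genes was not tested. Fold changes also varied by chromosome, from a median of -0.38 on chromosome 11 to 0.37 on chromosome 17 among the 20 chromosomes with at least 100 expressed genes. The value after removal of the median of the expressed genes in the same 10 Mb stretch is therefore given beside each member whose fold change it moved by more than 1.5 times or turned. Where that stretch held fewer than 10 other expressed genes, the median of the whole chromosome was used.

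Of the 36 members tested, 24 were higher and 6 lower in ETV4 KO cells, and 6 were not called. Read against the 71.1% of all genes that were called, the 83.3% of members called is not far from the background. Their direction was uneven, with 66.7% of the tested members called higher beside 35% of all genes, and a median log2 fold change of 0.19 beside -0.0038. Most of the differences were small. A change of more than 1.5-fold was seen for 3 members that rose (Chac1, Calr and Trib3) and 2 that fell (Nupr1 and Ern1), where 9.09% of all genes rose and 12% fell by that much. In CPM the 2 groups of libraries did not overlap for 29 of the 36 members, beside 72.7% of all genes. In these bulk samples, fewer cells of a type and less RNA per cell cannot be told apart.

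**Figure D1:**
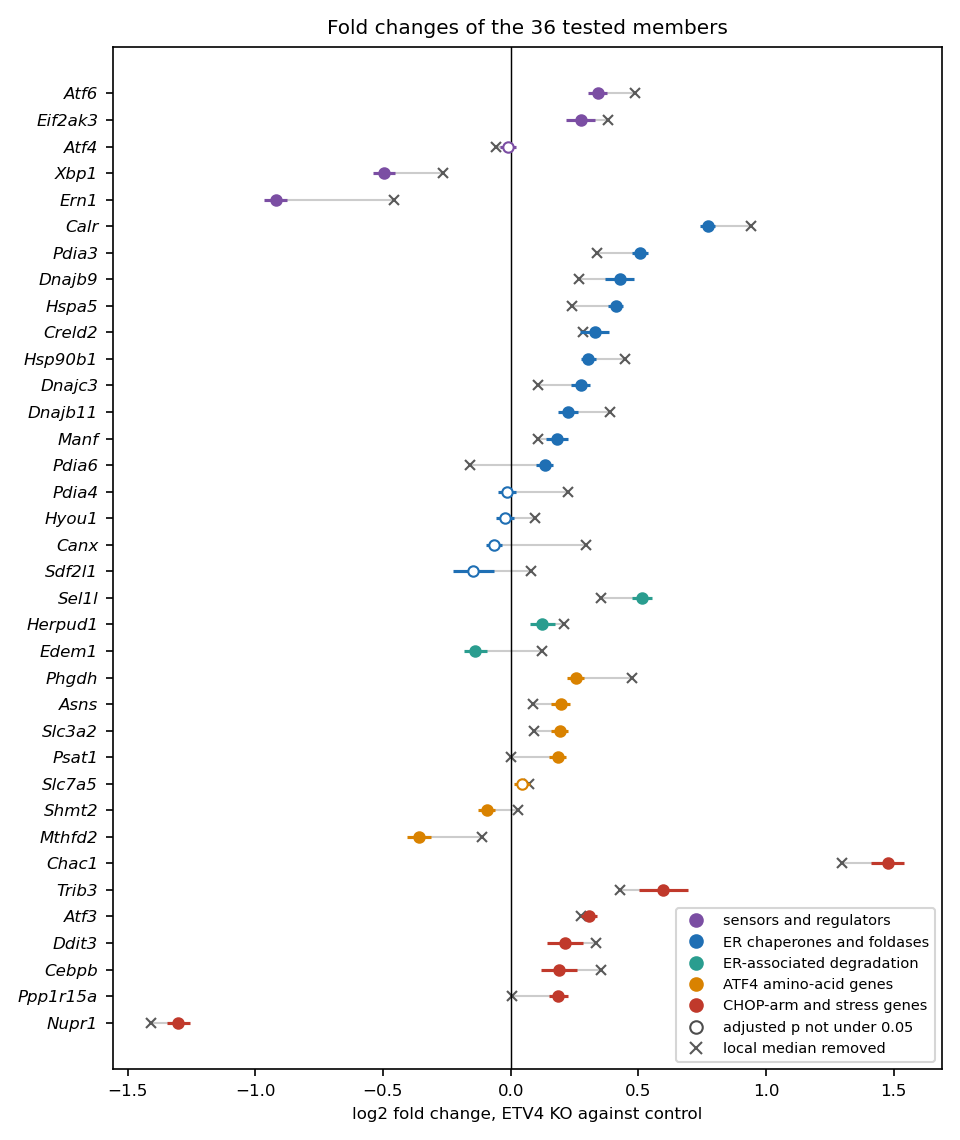
Log2 fold change of each tested member, ETV4 KO against control (x axis), by gene (y axis), with colours for the 5 arms. Circles with bars are the edgeR estimate and its SE, open circles are members not called, and crosses are the value after the median of neighbouring genes was removed. Chac1 lies farthest to the right at 1.48 and Nupr1 farthest to the left at -1.30.

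Among the sensors and regulators, Ern1 and Xbp1 fell, Atf6 and Eif2ak3 rose, and Atf4 was not called. Ern1, which encodes the sensor IRE1alpha (chr11:106394650-106487852, minus strand; GRCm38, as for all positions here, from GENCODE M21), was at 70.5, 65.8 and 66.2 CPM in the control libraries and 36.3, 34.5 and 36.1 CPM in the ETV4 KO libraries. All 3 ETV4 KO libraries lay far below the controls, and the level fell by 47.2% (log2 fold change -0.92 with SE 0.046, adjusted p = 6.31e-17). Xbp1, which encodes the transcription factor made from the transcript that IRE1alpha splices (chr11:5520659-5525893, plus strand), was at 72.6, 74.0 and 76.0 CPM in the control libraries and 52.5, 51.3 and 54.0 CPM in the ETV4 KO libraries, with no overlap between the groups (log2 fold change -0.50 with SE 0.042, adjusted p = 9.58e-12). Counts per gene do not separate spliced from unspliced Xbp1, so these values are the total transcript and not the activity of the branch.

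Ern1 and Xbp1 both lie on chromosome 11, where the median log2 fold change of expressed genes was -0.38. The median of the 101 expressed genes in the same 10 Mb stretch was -0.46 for Ern1, and 94 of them had a higher fold change than it. For Xbp1 the median of 51 neighbours was -0.23, with 47 of them above it. After these medians were removed the log2 fold changes were -0.46 for Ern1 (adjusted p = 8.05e-10) and -0.26 for Xbp1 (adjusted p = 2.74e-06). Both genes stayed lower by edgeR, at about 0.5 of the log2 difference they had before. The p-values of this adjustment treat the local median as known.

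The other 2 sensors moved the opposite way. Atf6 (chr1:170704674-170867771, minus strand), which encodes the precursor of the ATF6 transcription factor, was at 101, 96.6 and 96.0 CPM in the control libraries and 127, 121 and 124 CPM in the ETV4 KO libraries. Its lowest ETV4 KO library was above its highest control library (log2 fold change 0.34 with SE 0.037, adjusted p = 1.59e-09). Eif2ak3 (chr6:70844515-70905245, plus strand), the PERK kinase, was at 25.0, 27.7 and 26.3 CPM in the control libraries and 33.0, 31.3 and 31.3 CPM in the ETV4 KO libraries. The groups again did not overlap (log2 fold change 0.27 with SE 0.056, adjusted p = 6.94e-05). Atf4 (chr15:80255184-80257541, plus strand) was at 348, 349 and 351 CPM in the control libraries and 336, 355 and 351 CPM in the ETV4 KO libraries. The ETV4 KO libraries lay on both sides of the controls (log2 fold change -0.0095 with SE 0.032, adjusted p = 0.796), so no difference in its transcript was called, nor after its local median was removed (-0.057). ATF4 is regulated largely at translation, which these RNA counts do not measure.

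The ER chaperones and foldases were the only arm with 0 genes called lower. Of 14, 10 were higher and 4 not called, with a median log2 fold change of 0.25. In some alternative runs 1 or 2 of them were called lower. The share of the arm that was called, 71.4%, was near the 71.1% of all genes. Only the direction differed, with 71.4% called higher beside 35% of all genes. The CHOP and stress arm had a larger share called higher, 85.7%, with 14.3% lower. The difference between the chaperone arm and the others was not tested. For several of these genes the promoter carries the ER stress response element (ERSE), a bipartite sequence in which CCAAT, bound by NF-Y, and CCACG, bound by ATF6 and XBP1, stand 9 bases apart (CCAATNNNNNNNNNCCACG). An exact match on either strand was found in the 250 bases upstream of the RefSeq gene start (GRCm38.p6) in 7 of the 12 chaperone and foldase genes for which the RefSeq table held a promoter, a share of 58.3%. Manf and Hyou1 had no entry. The element was found in 0.13% of all 27025 gene promoters and 0.194% of those of tested genes. These shares describe promoter sequence alone and draw on no fold change. The matches are shown for the 7 genes that have one. They are written in the direction of the element, 5′ to 3′, with its fixed bases in capitals.
Hspa5: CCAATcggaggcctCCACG
Calr: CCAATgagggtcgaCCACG
Hsp90b1: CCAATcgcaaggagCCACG
Hsp90b1: CCAATcgtgcctcaCCACG
Creld2: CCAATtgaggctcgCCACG
Dnajc3: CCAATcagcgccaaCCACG
Pdia6: CCAATgaaaggcggCCACG
Canx: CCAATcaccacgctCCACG
Of these 7 genes, 6 were higher in ETV4 KO cells and Canx was not called. Among the chaperones and foldases with a promoter but no match, Pdia3, Dnajb9 and Dnajb11 were higher and Pdia4 and Sdf2l1 were not called. A link between the element and the change was not tested. Among the 11 other tested genes with an exact match, 4 were higher, 3 were lower and 4 were not called. A match is a description of the letters and not a binding site shown in these cells.

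Calr, Hsp90b1 and Creld2 show how differently the element is placed. Their upstream stretches are printed 5′ to 3′ in the direction of the gene, ending where GENCODE M21 begins an exon, with the element in capitals. The Calr stretch is chr8:84846935-84847181, minus strand, the Hsp90b1 stretch is chr10:86705510-86705694, minus strand, and the Creld2 stretch is chr15:88819396-88819645, plus strand (GRCm38).
Calr: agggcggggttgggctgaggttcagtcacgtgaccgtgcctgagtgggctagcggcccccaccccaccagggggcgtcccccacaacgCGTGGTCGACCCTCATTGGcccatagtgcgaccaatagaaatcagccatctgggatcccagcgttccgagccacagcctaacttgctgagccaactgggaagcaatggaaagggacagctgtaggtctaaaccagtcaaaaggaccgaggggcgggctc
Hsp90b1: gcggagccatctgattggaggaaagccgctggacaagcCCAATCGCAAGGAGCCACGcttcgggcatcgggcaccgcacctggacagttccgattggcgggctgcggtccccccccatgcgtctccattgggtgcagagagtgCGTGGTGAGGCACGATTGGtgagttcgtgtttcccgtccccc
Creld2: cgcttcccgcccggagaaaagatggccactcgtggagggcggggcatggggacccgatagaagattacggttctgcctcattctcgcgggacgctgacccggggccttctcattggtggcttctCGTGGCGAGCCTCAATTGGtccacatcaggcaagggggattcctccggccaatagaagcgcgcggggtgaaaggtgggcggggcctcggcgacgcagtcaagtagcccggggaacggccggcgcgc
Calr has 1 element on the opposite strand, 162 to 144 bases before the RefSeq start. Hsp90b1 has 2, of which 1 runs with the gene at 212 to 194 bases and 1 runs against it at 107 to 89 bases. In Creld2 the element also lies on the opposite strand, at 126 to 108 bases.

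Calr, the calcium-binding lectin chaperone calreticulin (chr8:84841850-84846934, minus strand), changed most among the chaperones. It was at 797, 821 and 813 CPM in the control libraries and 1391, 1389 and 1372 CPM in the ETV4 KO libraries. The replicates were tight and the level was 70.7% higher (log2 fold change 0.77 with SE 0.030, adjusted p = 6.80e-20). Its neighbours on chromosome 8 moved slightly the other way, with a median of -0.17 over 62 genes, and only 1 of them had a higher fold change. Canx, which encodes the membrane-bound lectin chaperone calnexin that works in the same folding cycle, was at 634, 625 and 648 CPM in the control libraries and 606, 588 and 630.0 CPM in the ETV4 KO libraries. Its groups overlapped and it was not called (log2 fold change -0.065 with SE 0.032, adjusted p = 0.0709). It lies on chromosome 11 (chr11:50293961-50325673, minus strand), where the local median was -0.36, and relative to its neighbours it was higher (0.30, adjusted p = 2.37e-09). Pdia3, the oxidoreductase that works with both lectins on glycoproteins (chr2:121413775-121438687, plus strand), was at 566, 565 and 575 CPM in the control libraries and 790.3, 823 and 810.1 CPM in the ETV4 KO libraries. The ETV4 KO libraries were all higher (log2 fold change 0.51 with SE 0.030, adjusted p = 3.64e-15), and 0.34 remained after a local median of 0.17 was removed.

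Hspa5 encodes BiP, the ER HSP70 chaperone that also holds the sensors inactive (chr2:34771970-34777547, plus strand). It was at 1312, 1292 and 1330.2 CPM in the control libraries and 1706, 1752 and 1778 CPM in the ETV4 KO libraries. The lowest ETV4 KO library stood well above the highest control (log2 fold change 0.41 with SE 0.030, adjusted p = 3.15e-13). Its local median on chromosome 2 was 0.17, which left 0.24 when removed. Hsp90b1, the ER HSP90 chaperone GRP94 (chr10:86690209-86705509, minus strand), was at 831, 828 and 843 CPM in the control libraries and 1022, 1026 and 1042 CPM in the ETV4 KO libraries. The groups were separate and the spread small (log2 fold change 0.30 with SE 0.029, adjusted p = 1.82e-10). Of its annotated exon bases 10.3% are shared with a pseudogene on the opposite strand. These are the chief chaperones of the ER lumen, and their levels were higher by 33.0% and 23.5%.

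The J-domain cochaperones, which stimulate BiP, all rose. Dnajb9 (ERdj4), a target of XBP1, was at 21.1, 23.3 and 23.8 CPM in the control libraries and 30.5, 29.9 and 31.4 CPM in the ETV4 KO libraries (log2 fold change 0.43 with SE 0.058, adjusted p = 1.51e-07). Dnajc3 (P58IPK), which also inhibits PERK, was at 96.8, 92.0 and 94.6 CPM in the control libraries and 116, 114 and 112 CPM in the ETV4 KO libraries (log2 fold change 0.27 with SE 0.037, adjusted p = 1.07e-07). Dnajb11 (ERdj3) was at 81.8, 81.9 and 87.2 CPM in the control libraries and 94.9, 98.8 and 99.7 CPM in the ETV4 KO libraries (log2 fold change 0.23 with SE 0.039, adjusted p = 7.72e-06). For none of the 3 did control and ETV4 KO libraries overlap. Dnajb9 thus rose while the Ern1 and Xbp1 transcripts fell. After local medians were removed the log2 fold changes were 0.27 for Dnajb9, 0.11 for Dnajc3 (adjusted p = 0.0117) and 0.39 for Dnajb11, so that of Dnajc3 was much smaller and that of Dnajb11 larger.

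The remaining foldases were divided. Creld2, a secreted and ER-resident ER stress protein, was at 32.1, 33.8 and 34.8 CPM in the control libraries and 38.0, 44.4 and 44.4 CPM in the ETV4 KO libraries, with ETV4 KO replicate 1 closest to the controls (log2 fold change 0.33 with SE 0.057, adjusted p = 8.56e-06). Manf, a secreted ER stress protein that binds BiP, was at 111, 116 and 123 CPM in the control libraries and 122, 141 and 135 CPM in the ETV4 KO libraries. Its ETV4 KO replicate 1 fell just below control replicate 3, so the groups overlapped although the gene was called (log2 fold change 0.18 with SE 0.044, adjusted p = 5.80e-04). Against its neighbours Manf was at 0.11 (adjusted p = 0.0376). Pdia6, a protein disulfide isomerase, was at 347, 349 and 364 CPM in the control libraries and 374, 395 and 394 CPM in the ETV4 KO libraries. This was a small rise without overlap (log2 fold change 0.13 with SE 0.033, adjusted p = 5.92e-04), and 7 of its 12 expressed neighbours on chromosome 12, whose median was 0.29, had a higher fold change. Relative to their median it was lower (-0.16, adjusted p = 8.57e-05), but it lay well within their spread, with 5th and 95th percentiles of -0.70 and 0.94.

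Pdia4, Hyou1, Canx and Sdf2l1 were not called, and their groups overlapped. Pdia4, another disulfide isomerase, was at 145, 139.6 and 143 CPM against 139.5, 143 and 142 CPM for control against ETV4 KO. Hyou1, the nucleotide exchange factor GRP170 of BiP, was at 172, 163 and 158 CPM against 160.2, 163 and 163 CPM. Sdf2l1, which forms a complex with Dnajb11, was at 12.5, 14.9 and 14.9 CPM against 12.1, 13.3 and 12.9 CPM. Their log2 fold changes were -0.013 ± 0.034 (SE, adjusted p = 0.738), -0.023 ± 0.036 (SE, adjusted p = 0.576) and -0.15 ± 0.080 (SE, adjusted p = 0.103) in that order. Hyou1 and Sdf2l1 are, like Hspa5, commonly used as ER stress reporters, and neither was called here. When the local medians were removed, Pdia4 (0.23, adjusted p = 1.27e-06) and Hyou1 (0.096, adjusted p = 0.019) were higher and Sdf2l1 (0.080) was not called. On that scale 12 of the 14 chaperones and foldases were higher and 1 lower. Over all 36 members it gave 26 higher, 5 lower and 5 not called, where 64.7% of all genes were called, 30.5% higher and 34.2% lower. These calls treat each local median as known and do not measure the spread of the neighbours. Of the 45 neighbours of Hyou1, for example, 17 had a higher fold change than it.

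**Figure D2:**
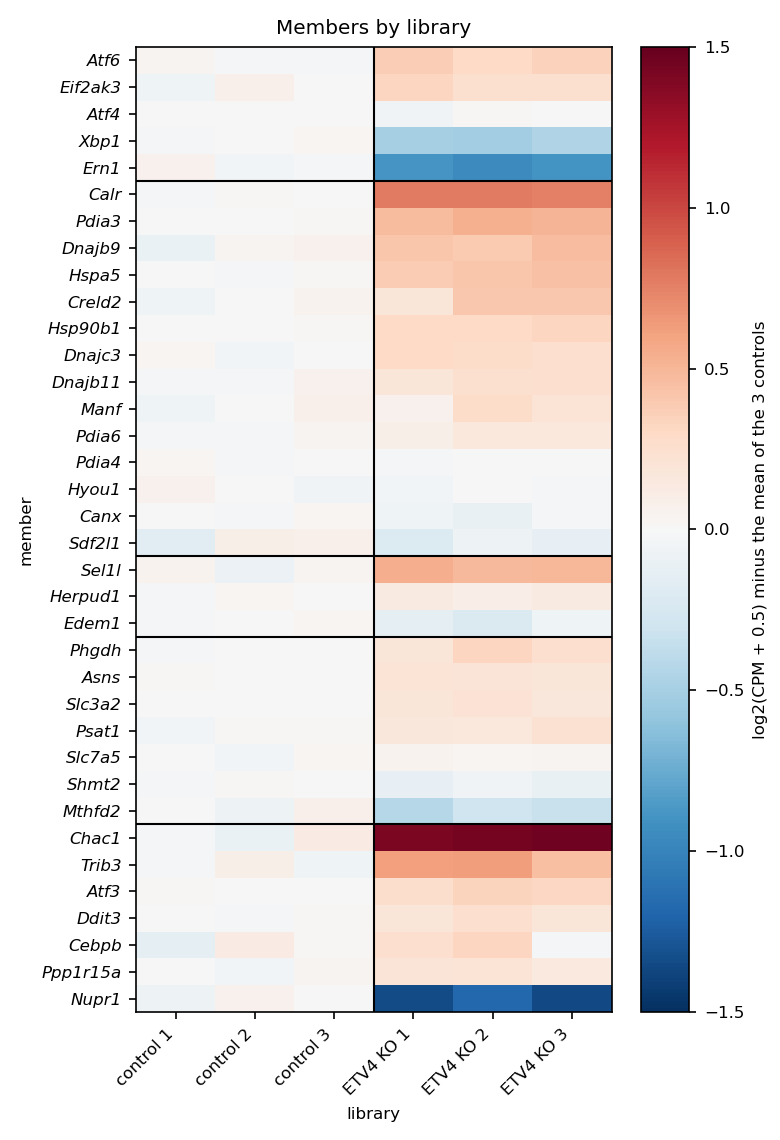
Colour shows log2(CPM + 0.5) minus the mean of the 3 controls for each tested member (rows, grouped by arm between the black lines) in each of the 6 libraries (columns). The 3 ETV4 KO libraries carry the same colours in nearly every row, with Ern1, Xbp1, Mthfd2 and Nupr1 blue and Calr and Chac1 deepest red.

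Of the 3 genes of ER-associated degradation, which returns misfolded proteins to the cytosol for proteasomal destruction, 2 were higher and 1 lower. Sel1l, the adaptor of the HRD1 ubiquitin ligase (chr12:91806043-91849157, minus strand), was at 84.1, 76.8 and 83.5 CPM in the control libraries and 119, 114 and 115 CPM in the ETV4 KO libraries. This was a rise of 42.8% without overlap (log2 fold change 0.51 with SE 0.039, adjusted p = 1.21e-12). Herpud1, which assists the same ligase and is a target of both ATF6 and ATF4, was at 36.1, 37.7 and 36.6 CPM against 40.5, 39.5 and 40.4 CPM, a difference of 8.98% (log2 fold change 0.12 with SE 0.048, adjusted p = 0.0236). The call for Herpud1 was lost without control replicate 1, control replicate 3, ETV4 KO replicate 1 or ETV4 KO replicate 3, with log2 fold changes of 0.11 to 0.12. It was also lost with upper-quartile scaling (0.087, adjusted p = 0.11), with library size only (0.073, adjusted p = 0.181) and by DESeq2 (0.13, adjusted p = 0.054), and against its neighbours Herpud1 was at 0.21 (adjusted p = 4.29e-04). Edem1, a lectin that hands glycoproteins to degradation and is a target of XBP1, was at 61.4, 63.2 and 64.2 CPM against 57.4, 54.1 and 60.1 CPM (log2 fold change -0.14 with SE 0.045, adjusted p = 0.00717). Without ETV4 KO replicate 2 its call was lost (log2 fold change -0.099, adjusted p = 0.0538), and removal of a local median of -0.26 turned it to 0.12 (adjusted p = 0.0188). The Herpud1 promoter held the compact ER stress element ERSE-II (ATTGGNCCACG), which was in 0.037% of all promoters.
Herpud1: ATTGGgCCACG
It was the 1 member with this element, and it also had a match to the element described next. The unfolded protein response element (UPRE) of XBP1 and ATF6 was searched in the exact form TGACGTGG only. This form matched in 0 of the 33 member promoters on either strand and in 0.603% of all promoters. Other forms of the element were not searched. At so low a background share, 0 of 33 does not show that the members lack it.

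The ATF4 amino-acid genes moved little. Of 7 tested, 4 were higher, 2 lower and 1 not called, with a median log2 fold change of 0.18 and none past 1.5-fold. As shares these were 57.1% higher and 28.6% lower, beside 35% and 36% of all genes. Phgdh, the first enzyme of serine synthesis (chr3:98313170-98339990, minus strand), was at 282, 286 and 286 CPM in the control libraries and 324, 354 and 339.9 CPM in the ETV4 KO libraries. The groups were apart, with ETV4 KO replicate 2 the highest (log2 fold change 0.25 with SE 0.034, adjusted p = 9.48e-08). Psat1, the aminotransferase of the second step, was at 203, 212 and 211 CPM against 235, 232 and 243 CPM (log2 fold change 0.18 with SE 0.033, adjusted p = 1.40e-05). The 32 expressed genes around Psat1 on chromosome 19 had the same median, 0.18, so that relative to them nothing remained (0.0016). Phgdh stood out more against its own neighbours (0.47, adjusted p = 3.31e-13).

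Asparagine synthetase and the amino-acid transporters differed by similarly small amounts. Asns (chr6:7675169-7693254, minus strand) was at 80.0, 78.8 and 78.8 CPM in the control libraries and 91.7, 90.3 and 90.2 CPM in the ETV4 KO libraries, with replicates within 2 CPM of one another in each group (log2 fold change 0.20 with SE 0.037, adjusted p = 2.96e-05). Slc3a2, the heavy chain shared by several amino-acid exchangers, was at 204, 207 and 205 CPM against 233, 239 and 232 CPM (log2 fold change 0.19 with SE 0.032, adjusted p = 4.40e-06). Slc7a5, its light-chain partner in the large neutral amino-acid transporter LAT1, was at 328, 317 and 334 CPM against 339.8, 334 and 335 CPM. Every ETV4 KO library was above every control, by a margin under 1 CPM, and the gene was not called (log2 fold change 0.044 with SE 0.032, adjusted p = 0.217). With library size only, its sign turned (-0.0075). After local medians were removed the log2 fold changes were 0.089 for Asns (adjusted p = 0.0382), 0.090 for Slc3a2 (adjusted p = 0.0149) and 0.072 for Slc7a5 (adjusted p = 0.0479).

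The mitochondrial one-carbon genes went down. Mthfd2, the mitochondrial methylenetetrahydrofolate dehydrogenase (chr6:83305691-83325908, minus strand), was at 64.5, 60.7 and 67.7 CPM in the control libraries and 47.5, 52.1 and 50.8 CPM in the ETV4 KO libraries. It was lower in all ETV4 KO libraries, by 22.1% (log2 fold change -0.36 with SE 0.047, adjusted p = 8.64e-08). Shmt2, the mitochondrial serine hydroxymethyltransferase, was at 197, 203 and 201 CPM against 184, 194 and 186 CPM (log2 fold change -0.094 with SE 0.033, adjusted p = 0.0139). The call for Shmt2 was lost without control replicate 2 (-0.084, adjusted p = 0.0571) or ETV4 KO replicate 3 (-0.084, adjusted p = 0.0708). Both genes lie among neighbours that were also lower. After removal of local medians of -0.25 and -0.12, Mthfd2 was at -0.11 (adjusted p = 0.042) and Shmt2 at 0.027 and not called.

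The CHOP and stress arm held both extremes of the module. Of the 7 genes tested, 6 were higher and Nupr1 was lower, with a median log2 fold change of 0.21. As shares these were 85.7% higher and 14.3% lower, beside 35% and 36% of all genes. The member promoters were also searched for the core of the C/EBP-ATF response element (CARE), the sequence to which ATF4 binds with a C/EBP partner, written as TGATGNAAN on either strand. Of the 33 members with a RefSeq promoter, 6 had a match, a share of 18.2% beside 3.89% of all promoters and 2.17% of those of tested genes. They are shown in the direction of the element, 5′ to 3′, with fixed bases in capitals.
Chac1: TGATGcAAc
Atf3: TGATGcAAg
Nupr1: TGATGcAAt
Asns: TGATGaAAc
Herpud1: TGATGcAAc
Vldlr: TGATGcAAc
In none of these promoters did a match overlap a match to another element. The genes that share it did not move together. Chac1, Atf3, Asns and Herpud1 were higher, Nupr1 was lower, and Vldlr was too low to test. Among the 197 other tested genes with a match, 72 were higher and 79 lower.

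Chac1, a glutathione-degrading enzyme induced by ATF4 (chr2:119351229-119354381, plus strand), had the largest fold change of the 36 members tested. It was at 11.9, 11.2 and 13.2 CPM in the control libraries and 33.1, 33.6 and 34.1 CPM in the ETV4 KO libraries. The lowest ETV4 KO library was more than 2.5 times the highest control, and the mean was 178% higher (log2 fold change 1.48 with SE 0.064, adjusted p = 1.84e-18). None of the 47 expressed genes within its 10 Mb stretch, whose median was 0.18, had a higher fold change. The stretch before its start, chr2:119350992-119351228, plus strand (GRCm38), ends where the GENCODE exon begins. The match, which runs against the gene at 194 to 186 bases before the RefSeq start, is in capitals.
Chac1: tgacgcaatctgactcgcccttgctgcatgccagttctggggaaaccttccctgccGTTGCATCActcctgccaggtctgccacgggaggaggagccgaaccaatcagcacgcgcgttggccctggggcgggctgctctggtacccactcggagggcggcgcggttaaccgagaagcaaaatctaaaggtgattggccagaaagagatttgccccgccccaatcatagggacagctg

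Nupr1, a small stress-induced chromatin-associated protein and a target of ATF4 (chr7:126623249-126630861, minus strand), was the tested member that fell most. It was at 113, 125 and 119.7 CPM in the control libraries and 46.7, 52.4 and 46.3 CPM in the ETV4 KO libraries. The highest ETV4 KO library was below 0.5 of the lowest control, and the mean fell by 59.4% (log2 fold change -1.30 with SE 0.046, adjusted p = 1.08e-20). All 78 expressed neighbours on chromosome 7 had a higher fold change, and their median was 0.11. Chac1 and Nupr1 thus moved in opposite directions, each beyond all of its neighbours.

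Trib3, a pseudokinase that is induced by CHOP and inhibits AKT and ATF4 (chr2:152337422-152344032, minus strand), was at 6.55, 7.16 and 6.38 CPM in the control libraries and 10.5, 10.6 and 9.37 CPM in the ETV4 KO libraries. The 3 ETV4 KO libraries lay above the controls (log2 fold change 0.60 with SE 0.095, adjusted p = 2.13e-06). Atf3, a transcription factor of the same stress programme (chr1:191170296-191218039, minus strand), was at 349, 344 and 345 CPM in the control libraries and 417, 437 and 429 CPM in the ETV4 KO libraries. This was a rise of 23.6% without overlap (log2 fold change 0.31 with SE 0.031, adjusted p = 5.65e-10). Ddit3, which encodes CHOP itself (chr10:127290774-127296288, plus strand), was at 14.0, 13.8 and 14.3 CPM in the control libraries and 15.9, 16.8 and 16.0 CPM in the ETV4 KO libraries. The difference was small at this low level, though the groups did not overlap (log2 fold change 0.21 with SE 0.069, adjusted p = 0.00759). Its fold change was below those of Chac1 and Trib3, and the difference between genes was not tested. Against neighbours with a median of -0.12, Ddit3 was at 0.33.

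Ppp1r15a, the regulatory subunit GADD34 that directs dephosphorylation of eIF2alpha (chr7:45522916-45526268, minus strand), was at 90.3, 88.0 and 93.1 CPM in the control libraries and 104, 104 and 101 CPM in the ETV4 KO libraries (log2 fold change 0.19 with SE 0.038, adjusted p = 6.26e-05). The rise was the same as that of its surroundings on chromosome 7 (0.18), and nothing remained after that median was removed (0.0063). Cebpb, the C/EBP partner of ATF4 and CHOP (chr2:167688915-167690418, plus strand), was at 26.7, 32.2 and 29.9 CPM in the control libraries and 35.3, 36.9 and 29.0 CPM in the ETV4 KO libraries. The groups overlapped, since ETV4 KO replicate 3 lay below 2 of the 3 controls (log2 fold change 0.19 with SE 0.070, adjusted p = 0.0186). The call was lost without control replicate 1 (0.12, adjusted p = 0.146), ETV4 KO replicate 1 (0.15, adjusted p = 0.0881) or ETV4 KO replicate 2 (0.12, adjusted p = 0.107) and by DESeq2 (0.19, adjusted p = 0.191), with upper-quartile scaling (0.15, adjusted p = 0.0568) and with library size only (0.14, adjusted p = 0.0804). Against neighbours with a median of -0.17, Cebpb was at 0.36 (adjusted p = 6.07e-05). The gene also shares 20.7% of its exon bases with Tmem189 on the opposite strand. The kit keeps strand, but the sources used here do not give the strand setting of the counting, and reads of the 2 genes may be mixed.

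Vldlr, the very low density lipoprotein receptor and a target of ATF4 (chr19:27216484-27254231, plus strand), had 7, 5 and 7 reads in the control libraries and 0 in each ETV4 KO library. With 3 reads over the 3 ETV4 KO libraries as the upper limit that 0 reads allow, it was at least 6.7-fold lower. The counts are too low for it to pass the filter. This bound takes the control reads as observed, so it covers the counting error of the 0 reads only and may be too high.

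**Figure D3:**
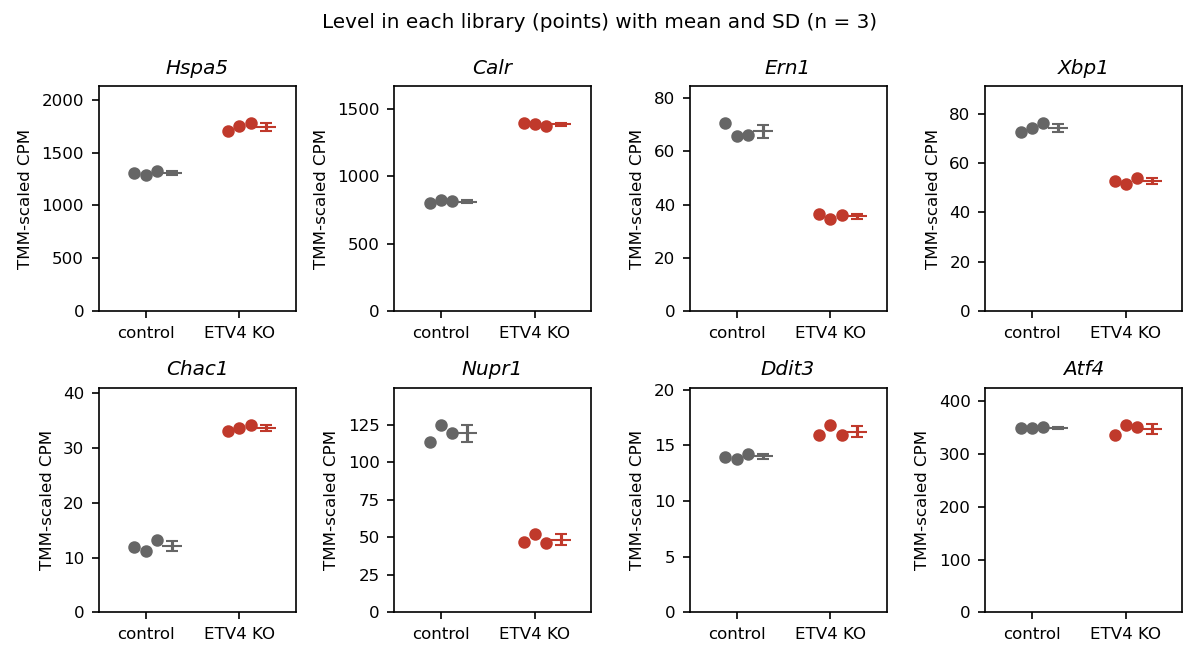
TMM-scaled CPM (y axes, each from 0) of 8 members in the 3 control (grey) and 3 ETV4 KO (red) libraries, with each library as a point and the mean and SD beside them. Chac1, Calr and Hspa5 are higher and Ern1, Xbp1 and Nupr1 lower in every ETV4 KO library, and the Atf4 points lie between 336 and 355 CPM in both groups.

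To compare levels between genes, mean CPM was divided by the length of the merged GENCODE exons. On this scale of CPM per kb the lumenal chaperones led in control cells, with Hspa5 at 310.2 ± 4.47 (SD, n = 3), Calr at 281 ± 4.17, Hsp90b1 at 207 ± 2.00 and Pdia3 at 181 ± 1.73. Atf3 at 161 ± 1.25 and Atf4 at 148 ± 0.597 CPM per kb stood next in this order, above every amino-acid gene and every other member of the stress arm. In ETV4 KO cells Calr, at 481 CPM per kb, passed Hspa5, at 413. Neighbours in the order were often closer than their spread, such as Pdia4 at 59.4 ± 1.17 and Slc3a2 at 58.2 ± 0.410 CPM per kb in control cells. At the low end stood Chac1 at 7.40, Eif2ak3 at 4.37 and Trib3 at 3.15 CPM per kb. Chac1 thus had its large fold change at a level far below the chaperones.

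**Figure D4:**
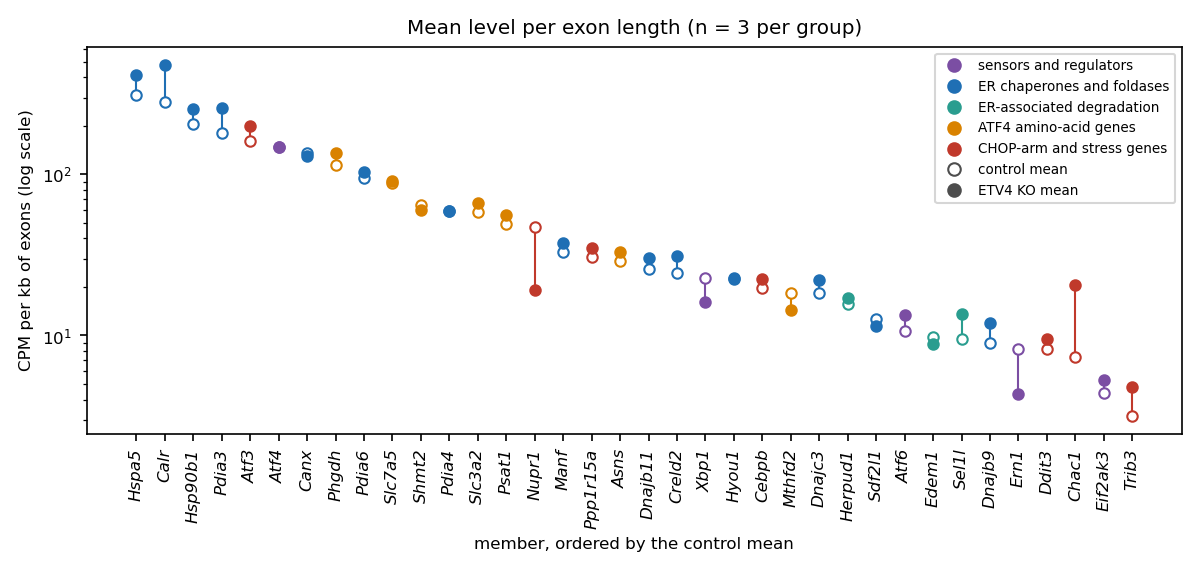
Mean CPM per kb of merged exons (y axis, log scale) for the 36 members with reads in both groups (x axis, ordered by the control mean), with open circles for control, filled circles for ETV4 KO and colours for the arms. Hspa5 and Calr stand at the left end at 310.2 and 281 CPM per kb in control cells and Trib3 at the right end at 3.15.

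The other genes of these pathways, from 7 lists drawn up beside the members, gave calls in both directions in each list. Their counts stand beside 71.1% of all genes called, 35% higher and 36% lower. Of 31 other ATF4 target genes tested, 14 were higher and 8 lower, with a median log2 fold change of 0.075 beside -0.0038 for all genes. Atf5, a transcription factor downstream of ATF4, rose more than any member, from 14.0 ± 0.366 CPM in control to 43.2 ± 1.70 CPM in ETV4 KO (SD, n = 3; log2 fold change 1.62 with SE 0.058, adjusted p = 1.47e-20). Tars, the threonyl-tRNA synthetase, was higher by 0.45 and Slc38a2, the neutral amino-acid transporter SNAT2, by 0.39 on the log2 scale, with 0.19 and 0.25 left after local medians were removed. Ddit4, which encodes the mTORC1 inhibitor REDD1, fell, from 318 ± 11.7 CPM in control to 125 ± 14.4 CPM in ETV4 KO (SD, n = 3; log2 fold change -1.36 with SE 0.048, adjusted p = 1.20e-20). As with Chac1 and Nupr1 among the members, these ATF4-linked genes included differences past 1.5-fold in both directions.

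The kinases and phosphatase of eIF2alpha and the subunits of eIF2B, its exchange factor, gave 7 higher and 4 lower of 12 tested. The largest rises among those named were 0.38 ± 0.052 (SE, adjusted p = 1.24e-07) for Eif2b4 and 0.36 ± 0.048 (SE, adjusted p = 1.22e-07) for Eif2ak4, the amino-acid sensing kinase GCN2. Ppp1ca, the catalytic subunit that Ppp1r15a recruits, rose by 0.26 and Eif2b3 fell (-0.31 with SE 0.053, adjusted p = 7.59e-06). After local medians were removed, Eif2b4 was at 0.12 and no longer called (adjusted p = 0.052), Eif2ak4 at 0.18, Ppp1ca at 0.15 and Eif2b3 at -0.15. On that scale 2 of the 12 were higher and 3 lower.

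The ERAD machinery beyond the 3 members gave 9 of 23 higher (39.1%) and 11 lower (47.8%), beside 35% and 36% of all genes, and 7 higher and 8 lower after local medians were removed. Nploc4 (-0.47 with SE 0.035, adjusted p = 5.74e-13), Derl2 (-0.43 with SE 0.044, adjusted p = 4.46e-10) and Vcp (-0.31 with SE 0.030, adjusted p = 2.79e-10), which extract proteins from the ER membrane, were lower, and Rnf139, an ER ubiquitin ligase, was higher (0.49 with SE 0.047, adjusted p = 1.42e-10). Nploc4 and Derl2 lie on chromosome 11, and against their neighbours they were at 0.051 and -0.031 and not called, while Vcp kept -0.15 (adjusted p = 5.73e-05). The translocon and secretory genes that XBP1 is known to induce gave 14 higher and 12 lower of 32. Sec24d, a COPII coat subunit, had the smallest adjusted p among the rises (0.68 with SE 0.036, adjusted p = 1.58e-16), followed by the oligosaccharyltransferase subunits Stt3b (0.52 with SE 0.034, adjusted p = 3.13e-14) and Stt3a (0.45 with SE 0.030, adjusted p = 5.78e-14), and Srp68 of the signal recognition particle was lower (-0.54 with SE 0.035, adjusted p = 2.44e-14). Srp68, too, lies on chromosome 11 and was not called against its neighbours (-0.059), where Sec24d kept 0.43.

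Other ER foldases gave 16 higher, 9 lower and 10 not called of 35, with a median of 0.039. Serpinh1, the collagen chaperone HSP47 (0.47 with SE 0.033, adjusted p = 1.08e-13), Calu, a calcium-binding protein of the secretory pathway (0.41 with SE 0.031, adjusted p = 1.13e-12), and Cnpy4 (0.75 with SE 0.057, adjusted p = 8.67e-13) rose, and Rcn2 fell (-0.38 with SE 0.038, adjusted p = 3.73e-10). Against their neighbours Serpinh1 was at 0.17 and Rcn2 at -0.23, and both were still called. Of the 12 tested transcription factors and partners of the sensors, 3 were higher and 6 lower. Creb3l2, an ER-anchored transcription factor, fell from 29.3 ± 1.73 CPM in control to 15.2 ± 0.126 CPM in ETV4 KO (SD, n = 3; log2 fold change -0.94 with SE 0.063, adjusted p = 4.58e-14). Rtcb, the ligase that joins spliced Xbp1 RNA, also fell (-0.43 with SE 0.033, adjusted p = 1.32e-12), as did Tmbim6, an inhibitor of IRE1alpha (-0.26 with SE 0.034, adjusted p = 6.33e-08). Atf6b, the close relative of Atf6, rose with it, from 82.0 ± 2.51 CPM in control to 136 ± 4.06 CPM in ETV4 KO (SD, n = 3; log2 fold change 0.73 with SE 0.038, adjusted p = 1.16e-16). After local medians were removed Tmbim6 was at -0.40 and Atf6b at 0.44.

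Genes of ER stress-linked cell death gave 2 higher and 4 lower of 9 tested. Casp12, a caspase of the ER, had 141, 169 and 134 reads in the control libraries and 4, 3 and 3 in the ETV4 KO libraries (log2 fold change -5.50 with SE 0.25, adjusted p = 4.05e-18). Its counts in the ETV4 KO libraries are near 0, and the size of the fold change is uncertain to that extent. The other named genes moved far less, with Bcl2 at -0.40 ± 0.053 (SE, adjusted p = 9.31e-08) and its antagonist Bcl2l11 (BIM) at -0.30 ± 0.042 (SE, adjusted p = 2.76e-07) both lower and Bak1 higher at 0.42 ± 0.038 (SE, adjusted p = 4.49e-11). Bak1 lies on chromosome 17, where its local median was 0.36, and against its neighbours it was at 0.059 and not called (adjusted p = 0.177), while Bcl2l11 was at -0.48.

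**Figure D5:**
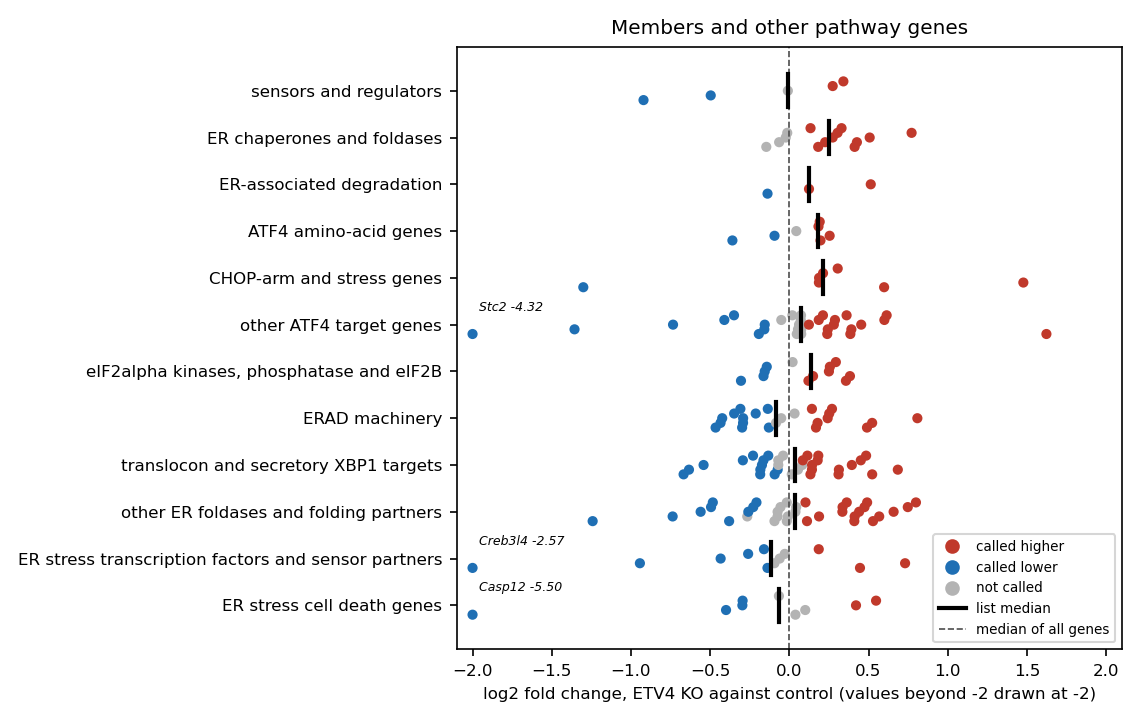
Log2 fold change of each tested gene (points, x axis) in the 5 member arms and the 7 other lists (y axis), red where called higher, blue where called lower and grey where not called, with the list median as a black bar and the median of all genes as a dashed line. The chaperone arm has 10 red and 0 blue points, while every other arm and list has both. Values beyond -2 are drawn at -2 with their value.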

How the data were processed

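For 6 libraries of poly(A) RNA the authors deposited raw counts of reads, by gene symbol, in 1 table without normalization. Per the submitters' processing notes, the tools were featureCounts, STAR 2.7.9a, FastQC 0.11.9 and R 4.1.1 and the builds were mm10 and hg38, with no role or order given. The sources used here do not give the annotation, the strand setting or the handling of multi-mapped reads, so overlapping genes and genes with near-identical copies are uncertain. Samples were grouped by title and columns matched by library name. Total counts ranged from 22355015 to 29042569.

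The deposited counts were analysed with edgeR 4.0.16 in R 4.3.3: filterByExpr (minimum count 10, total 15), TMM scaling, glmQLFit and glmQLFTest with group as the only term, and Benjamini-Hochberg adjustment over 12076 genes. SE is the absolute log2 fold change over the square root of F. Plotted log2 CPM uses a pseudocount of 0.5. Positions come from GENCODE M21 (GRCm38, equal to mm10), which placed 30514 of 31017 symbols. Promoters come from RefSeq (GRCm38.p6), which held 33 of the 37 members. Local medians use other genes with edgeR log2 CPM above 3 in the same 10 Mb bin, or the chromosome where a bin held fewer than 10.

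Alternatives were RLE and upper-quartile factors, library size only, DESeq2 1.42.0, limma-voom (limma 3.58.1), no filter, a CPM filter, a replicate block, each sample left out, an adjusted p under 0.01, glmTreat against 1.5-fold and removal of local medians. On simulated counts for the 12076 genes, edgeR recovered 64% of 50 genes changed 1.2-fold, 92% at 1.5-fold and at 2-fold, 100% at 4-fold, and called 8 of 11876 unchanged genes. In the data 71.1% of genes were called, so the adjustment sets a different cut-off there. These rates therefore do not carry over to the calls given here. All members could be named. From each other list the text names up to 3 genes called in the direction that most took, and 1 called in the opposite direction, by smallest adjusted p. The members and lists were chosen with earlier results of these data known.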

Additional observations from a re-analysis of the deposited data

How the results depend on the processing

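Of the 36 tested members 27 kept their sign in every alternative run and 9 did not, of which 7 turned with local medians removed. In the other alternatives 3 members that were not called turned: Atf4 without ETV4 KO replicate 1 (0.013), Hyou1 without control replicate 1 (0.011) and Slc7a5 with library size only (-0.0075). Calls were less stable than signs, and 5 members (Ern1, Calr, Chac1, Nupr1 and Atf4) kept the same call in every alternative. The call was the same for 10 members under glmTreat, 27 with local medians removed and 32 to 36 in the rest. Against a fold change of 1.5 (glmTreat), 735 genes were called higher and 949 lower, with 2 members higher (Calr and Chac1) and 2 lower (Ern1 and Nupr1), so 1 chaperone, 0 amino-acid genes in either direction and 1 gene of the stress arm were called higher. The count of chaperones called lower, 0 as reported, was 2 under upper-quartile scaling and 2 under library size alone (Canx and Sdf2l1), 1 when a gene needed a CPM of 1 or more in 3 samples, 1 with the replicate block and 1 with local medians removed. It was 0 to 1 with a sample left out (Sdf2l1 at -0.22 without control replicate 1, Canx at -0.088 without ETV4 KO replicate 3). The count of amino-acid genes called lower, 2 as reported, was 1 to 2 with a sample left out, 1 at an adjusted p under 0.01 and 1 with local medians removed. With no low-count filter 2 genes of the stress arm were lower, since Vldlr was then tested. Removal of local medians turned Sdf2l1 to 0.080, Hyou1 to 0.096, Canx to 0.30, Pdia4 to 0.23, Pdia6 to -0.16, Edem1 to 0.12, Shmt2 to 0.027 and Nploc4 to 0.051. For these changes, where construction of the alternative does not show it, the cause was not tested. The correlations of same-numbered deviations were weak, at 0.071, 0.071 and 0.019, beside -0.086 to 0.020 for differently numbered pairs. ETV4 KO replicate 3 correlated about equally with control replicate 3 (0.019) and control replicate 1 (0.020). Whether samples of the same number shared a batch was not tested. The replicate block gave 8882 called genes beside 8582 and changed the call of 1 member, Canx. The median of all genes moved at most to -0.055 (library size only). At this depth low-count members such as Trib3, Ddit3 and Sdf2l1 have the widest errors.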

Other observations

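Among the other ATF4 target genes and the ER stress transcription factors, 2 genes of low abundance, chosen after their values were seen, were lower in every ETV4 KO library. Stc2, which encodes the secreted glycoprotein stanniocalcin 2 and lies on chromosome 11, had 31, 20 and 31 reads in the control libraries and 2, 0 and 2 in the ETV4 KO libraries (edgeR adjusted p = 1.95e-08). Creb3l4, which encodes an ER-anchored transcription factor and lies on chromosome 3, had 33, 40 and 19 reads in the control libraries and 6, 8 and 2 in the ETV4 KO libraries (edgeR log2 fold change -2.57 with SE 0.38, adjusted p = 5.92e-07). The groups did not overlap for either gene. At these counts the sizes of the falls are uncertain.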
